A study of Mus musculus with 28 samples.

Results

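The experiment asked what TGF-β on its own does to the transcriptome of activated mouse CD4+ T cells, in a series that also cultured them with IL-4 and with both cytokines, the combination that drives Th9 differentiation. It compared 3 RNA-seq libraries of WT cells cultured with TGF-β (WT TGF-β) with 3 of WT cells cultured with medium (WT control), which are 6 of the 28 samples of the series and 6 of its 24 RNA-seq libraries. The other 18 RNA-seq libraries are WT cells with IL-4 or TGF-β + IL-4 and KO cells in all 4 cultures, again with 3 libraries each. Naïve CD4+ T cells were isolated from spleens and lymph nodes, and every culture, control included, received TCR stimulation with anti-CD3 and anti-CD28. WT and KO cells both carry floxed *Tgfbr1* alleles and a tamoxifen-inducible Cre (Tgfbr1 f/f ER-cre+). WT mice were given oil and KO mice tamoxifen, so the WT cells keep the receptor but also carry the unrecombined alleles and the Cre. Per the study's methods, the mice were on a C57BL/6 background, of both sexes and 8 to 10 weeks old. The promoter that drives the Cre and the culture time behind these libraries are not given in the sources used here. The labels number the replicates but do not say whether each is a separate mouse, so the p-values measure the spread between these libraries. In these bulk samples a lower value of a gene can mean fewer cells that express it or less RNA per cell, and the data cannot tell them apart.

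The members were chosen by the position of their columns in the deposited table of RPKM (reads scaled to gene length and to the size of the library), because the column headings conflict with the read counts that accompany the study. For 8 WT libraries those read counts name the column directly, since the genes without reads are the same. The zero pattern agreed for at least 99.8% of the genes in the matching column and for at most 85.8% in any other column. All 8 matched the column in library-number order, but only 2 matched the column that bears their name, and 6 matched a column headed as another library. WT control 1 and 3 and WT TGF-β 1 and 3 are among these 8 libraries. WT control 2 and WT TGF-β 2 rest on the order alone, as do all KO columns, and their columns are headed WT TGF-β 2 and WT TGF-β 3. The second of these headings is contradicted, because WT TGF-β 3 was found in another column. Every value below follows the order.

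TGF-β is a secreted cytokine that is stored in a latent form and released by activators. It binds a type II receptor, which recruits and phosphorylates the type I receptor, and the type I receptor phosphorylates Smad2 and Smad3, which enter the nucleus with Smad4. In CD4+ T cells TGF-β is known to induce Foxp3 and to restrain IL-2, Th1 and cytotoxic programmes, and with other cytokines it takes part in the differentiation of Treg, Th17 and Th9 cells. The pathway also limits itself through Smad7, Ski, SnoN (encoded by *Skil*) and Pmepa1.

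The 6 libraries were alike in depth and complexity. Steps between low RPKM values placed their relative depth between 0.808 and 1.04 of that of WT control 1, and between 14674 and 14910 genes had a value above 0. The 10 most abundant genes took between 7.10% and 8.6% of all RPKM. The summed RPKM of 12 genes of CD4 T cell identity lay between 2758 and 2935 in WT control and between 2729 and 2762 in WT TGF-β, and *Cd4* itself was at 98.3, 93.8 and 96.6 in WT control and at 81.2, 81.2 and 77.5 in WT TGF-β. Of these 12 genes, 2 were called lower and none higher with TGF-β, beside 2.28% and 3.42% of all genes tested. Their median log2 difference was -0.21. Genes of other cells were present at low levels and some moved with the treatment. Summed markers of myeloid cells were between 41.6 and 57.4 in WT control and between 82.7 and 139 in WT TGF-β. Of the 11 myeloid markers tested, *S100a8*, *S100a9* and *Ngp*, which neutrophils express, were higher with TGF-β and none was lower. The median log2 difference of the 11 was 0.97. *Cd14*, *Csf1r*, *Itgam* and *Emr1* stayed below 1 RPKM in all 6 libraries and were not tested. *S100a8* was at 3.2, 11.4 and 9.89 RPKM in WT control and at 52.2, 32.0 and 44.5 in WT TGF-β, and the call on it was lost without WT TGF-β 1 or 3, that on *Ngp* also without WT control 1 or 2. Summed B cell markers lay between 22.8 and 36.7 in WT control and between 17.2 and 20.8 in WT TGF-β, with none of 5 called. Summed NK cell, dendritic cell and stromal markers lay between 2.78 and 7.35 in both groups, and the sum of 9 erythroid and platelet markers, between 1.09 and 26.9, varied most within WT control, where the globin gene *Hba-a1* was at 9.97, 21.9 and 0. Of 3 NK cell markers tested, *Fcgr3* was called higher, from a mean of 0.585 RPKM in WT control to 1.58 in WT TGF-β. The summed NK cell markers did not rise, lying between 6.61 and 7.35 in WT control and between 6.17 and 7.21 in WT TGF-β. The part of these cells in the results below was not tested.

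TGF-β alone changed 555 of 9726 genes tested. The test was limma, applied to log2(RPKM + 1) of the genes whose mean RPKM reached 1. That mean is over both groups, so a gene under 1 RPKM in 1 group was tested only through its level in the other. The filter therefore favours calls among genes of low level, such as genes low in control that rose. Called genes had an adjusted p (Benjamini-Hochberg) below 0.01 and differed by more than 1.5-fold. The called genes are 5.71% of those tested, with 333 higher (3.42%) and 222 lower (2.28%) in WT TGF-β. The median log2 difference over all genes was 0.01, so the levels were centred alike. Genes that rose had low levels in control, with a median of 3.99 RPKM that became 9.87, and genes that fell went from a median of 13.6 to 5.54. The log2 difference was over 1 for 132 of the higher genes and below -1 for 81 of the lower ones. In all 555 the 3 WT TGF-β libraries lay entirely above or below the 3 WT control libraries, which was so for 3747 genes of all tested (38.5%). With the 4 libraries that the read counts identify, and none that rests on order, 342 genes were called higher and 219 lower, of which 308 and 203 were the same genes.

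**Figure D1:**
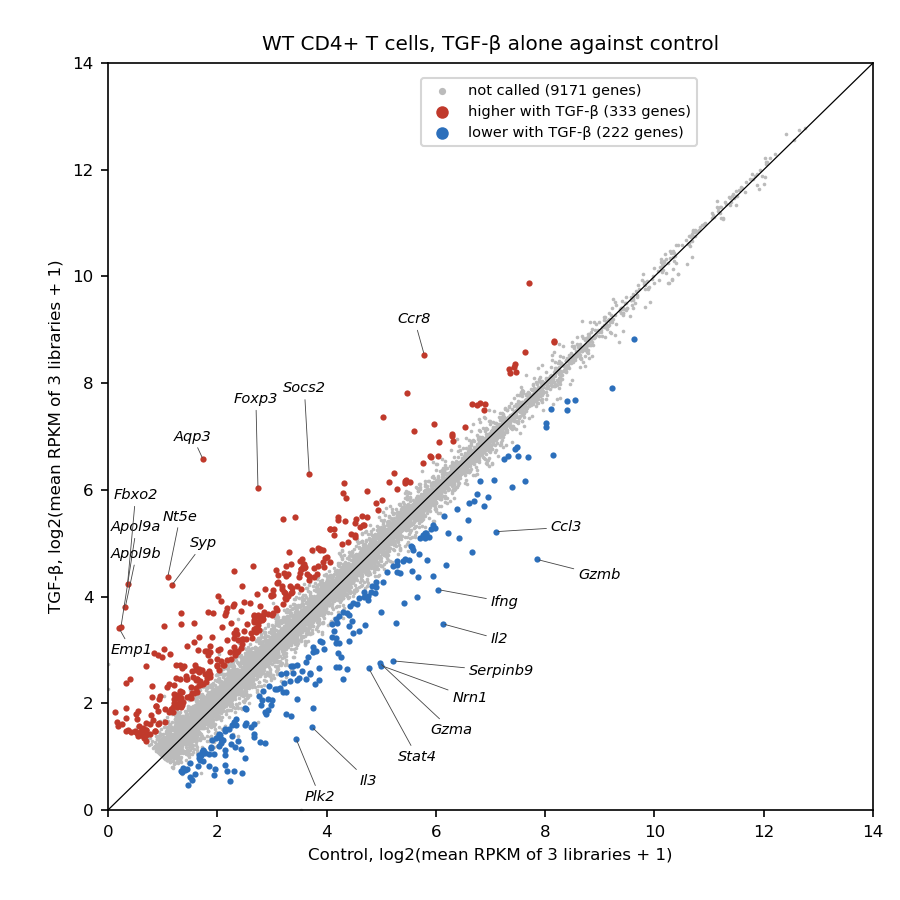
Each point is 1 of 9726 genes, with the log2 of its mean RPKM + 1 over 3 WT control libraries on the x axis and over 3 WT TGF-β libraries on the y axis, and the line marks equal levels. The 333 genes called higher are red and the 222 called lower are blue, and the 10 largest differences in each direction are named.

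The largest increases were in genes of diverse kinds, from a water channel to the Treg master factor. *Aqp3*, which encodes an aquaporin that carries water and glycerol (mm9, chromosome 4, 41039755 to 41045216, minus strand), was at 2.6, 1.99 and 2.43 RPKM in WT control and at 96.5, 87.4 and 98.5 in WT TGF-β. That is 40.2-fold on the mean RPKM and 4.83 on the log2(RPKM + 1) scale (SE 0.08, adjusted p = 9.28e-08). *Fbxo2*, which encodes an F-box protein that recognises sugar chains on glycoproteins, was nearly silent in control, with 0.282 ± 0.064 RPKM, and reached 17.9 ± 0.151 with TGF-β (SD, n = 3). *Foxp3*, the transcription factor that defines Treg cells (chromosome X, 7156802 to 7172369, plus strand), rose from 5.76, 6.12 and 5.23 RPKM to 61.9, 73.4 and 57.6. The difference of *Foxp3* was 11.3-fold (log2 3.28, SE 0.10, adjusted p = 8.70e-07). *Nt5e*, which encodes the ectoenzyme CD73 that makes adenosine from AMP, was at 1.12, 1.04 and 1.25 RPKM in control and at 19.5, 19.8 and 19.8 with TGF-β. *Emp1*, which encodes an epithelial membrane protein, went from 0.151 ± 0.024 to 9.61 ± 1.47 RPKM. *Syp*, a synaptic vesicle gene that lies close to *Foxp3* on chromosome X (7215597 to 7230382), went from 1.22, 1.47 and 1.05 RPKM to 16.8, 17.9 and 17.8. *Ccr8*, a chemokine receptor of Treg and Th2 cells, stood out by its level, since it was already at 53.7, 50.9 and 58.1 RPKM in control and reached 381, 359 and 368. *Socs2*, an inhibitor of cytokine signalling, rose from 11.8 ± 1.33 to 77.3 ± 1.12 RPKM. The apolipoprotein L genes *Apol9a* and *Apol9b* were below 0.4 RPKM in every control library and between 8.90 and 13.4 with TGF-β, but they are near-identical copies on chromosome 15 and reads may have been split between them.

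The 10 largest decreases included the granzyme genes *Gzmb* and *Gzma* and the cytokine genes *Il2*, *Il3* and *Ifng*, beside genes of other kinds such as *Nrn1* and *Plk2*. *Gzmb*, which encodes the protease granzyme B (chromosome 14, 56877693 to 56881097, minus strand), fell from 222, 265 and 203 RPKM to 27.6, 23.9 and 23.2. The 3 TGF-β libraries were 9.23-fold lower on the mean (log2 -3.15, SE 0.10, adjusted p = 1.46e-06). *Il2*, the T cell growth factor (chromosome 3, 37019445 to 37024881, minus strand), fell from 76.6, 65.7 and 64.9 RPKM to 10.3, 9.75 and 10.6, which is 6.76-fold (log2 -2.64, SE 0.07, adjusted p = 7.38e-07). *Serpinb9*, an inhibitor that protects cells from granzyme B, fell with the protease, from 36.3 ± 1.63 to 5.94 ± 1.43 RPKM (SD, n = 3). *Gzma*, encoding granzyme A, went from 30.5 ± 0.585 to 5.74 ± 0.893 RPKM. *Il3*, a cytokine that acts on myeloid precursors, was at 13.6, 12.8 and 10.5 RPKM in control and at 2.84, 1.13 and 1.83 with TGF-β. *Stat4*, which carries the IL-12 signal, went from 27.3, 23.8 and 27.9 RPKM to 6.10, 4.50 and 5.3, and *Ifng*, the Th1 cytokine, from 63.1, 71.6 and 60.3 to 17.1, 13.6 and 18.8. The other members of the 10 largest decreases were *Nrn1*, encoding neuritin, the kinase gene *Plk2* and the chemokine gene *Ccl3*, with log2 differences of -2.29, -2.10 and -1.89.

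Promoter sequences are shown for *Aqp3*, the largest increase, for *Gzmb* and *Il2*, the 2 largest decreases, and for *Nt5e*, *Emp1* and *Ccr8*, which were chosen after the motif search because theirs were the promoters with a Smad box among the 10 largest increases. Each line gives the 250 bases before a transcription start in RefSeq, on the gene's strand and in the GRCm38.p6 build, with matches to 2 short motifs in capitals. These are the Smad box (CAGACA or, on the other strand, TGTCTG) and the AP-1 site (TGAGTCA or TGACTCA). The windows are chr4:41098184-41098433 (minus) for Aqp3, chr9:88327359-88327608 (plus) for Nt5e, chr6:135362681-135362930 (plus) for a start of Emp1, chr9:120091883-120092132 (plus) for Ccr8, chr14:56262335-56262584 (minus) for Gzmb and chr3:37125955-37126204 (minus) for Il2.
Aqp3: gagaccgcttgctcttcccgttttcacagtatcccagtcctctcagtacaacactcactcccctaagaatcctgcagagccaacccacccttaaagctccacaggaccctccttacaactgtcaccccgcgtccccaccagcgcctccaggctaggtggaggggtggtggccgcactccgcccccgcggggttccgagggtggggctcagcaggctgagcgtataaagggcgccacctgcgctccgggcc
Nt5e: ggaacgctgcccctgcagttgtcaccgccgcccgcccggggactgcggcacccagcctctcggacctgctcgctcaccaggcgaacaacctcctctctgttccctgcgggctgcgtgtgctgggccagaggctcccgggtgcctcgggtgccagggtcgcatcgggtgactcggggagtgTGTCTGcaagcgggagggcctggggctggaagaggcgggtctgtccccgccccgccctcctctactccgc
Emp1: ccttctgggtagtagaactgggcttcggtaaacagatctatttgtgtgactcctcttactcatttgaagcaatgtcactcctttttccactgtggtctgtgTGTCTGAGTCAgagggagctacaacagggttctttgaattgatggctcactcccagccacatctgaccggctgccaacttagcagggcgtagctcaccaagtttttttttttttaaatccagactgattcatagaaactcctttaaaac
Ccr8: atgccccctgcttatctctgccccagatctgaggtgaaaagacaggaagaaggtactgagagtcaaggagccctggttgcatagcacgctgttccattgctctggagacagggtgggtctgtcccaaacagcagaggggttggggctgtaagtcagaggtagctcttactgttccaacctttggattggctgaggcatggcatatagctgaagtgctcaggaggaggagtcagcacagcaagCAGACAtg
Gzmb: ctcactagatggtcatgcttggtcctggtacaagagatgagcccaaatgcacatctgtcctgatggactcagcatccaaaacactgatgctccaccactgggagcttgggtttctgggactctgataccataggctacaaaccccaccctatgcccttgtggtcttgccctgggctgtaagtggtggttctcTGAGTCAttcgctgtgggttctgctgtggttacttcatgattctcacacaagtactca
Il2: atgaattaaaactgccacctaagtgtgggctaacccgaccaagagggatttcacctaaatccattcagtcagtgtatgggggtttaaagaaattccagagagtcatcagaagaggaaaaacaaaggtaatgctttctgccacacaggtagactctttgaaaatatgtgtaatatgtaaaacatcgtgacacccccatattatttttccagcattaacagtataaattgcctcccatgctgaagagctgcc
The Smad box was found 70 bases before the start of *Nt5e*, 8 bases before that of *Ccr8* and 149 bases before that of *Emp1*, where it overlaps an AP-1 site. The window of *Gzmb* holds an AP-1 site 58 bases before the start, and those of *Aqp3* and *Il2* hold neither motif. Among the 20 genes of largest change, 18 had RefSeq promoters. Of 13 promoters of the increased genes 3 held a Smad box and 3 an AP-1 site, and of 10 promoters of the decreased genes 1 held each. The 3 with an AP-1 site include those of *Apol9a* and *Apol9b*, near-identical copies with the same bases around the site. A Smad box was present in 17.1% of all 32851 RefSeq promoters and an AP-1 site in 4.46%. The shares were 13.2% and 3.01% for the promoters of all genes tested, 19% and 6.15% for the 358 promoters of the genes called higher, and 19% and 7.18% for the 195 promoters of the genes called lower. The longer Smad palindrome GTCTAGAC was found in 0.167% of all promoters and in none of the promoters of called genes. A match is only a match of letters, and no DNase-seq library of cells with TGF-β alone was made.

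Within the TGF-β pathway itself, 3 of 6 receptor genes and 5 of 11 feedback inhibitor genes tested were called higher, and among the Smads only *Smad3* was called. *Acvrl1*, *Smad7* and *Ldlrad4*, with means of 0.553, 0.614 and 0.988 RPKM in control, passed the filter only through WT TGF-β. So did *Itgae*, *Ahr*, *Maf* and *Il18r1* in lists below. Of the genes named above, so did *Fbxo2*, *Emp1*, *Apol9a*, *Apol9b* and *Fcgr3*. For these and all lists below, the shares over all genes tested were 3.42% higher and 2.28% lower. The lists were chosen with earlier results of these data known. They share members, with 60 genes in 2 lists or more, so their counts are not separate. Of the ligands and activators, 4 of 13 passed the filter on low values and 2 were higher. *Furin*, the protease that cleaves the TGF-β precursor, rose from 36.6, 38.0 and 35.7 RPKM to 84.7, 77.4 and 73.3 (log2 1.07, SE 0.06, adjusted p = 1.68e-05). *Lrrc32*, which encodes GARP, the docking protein for latent TGF-β on Treg cells, rose from 1.49 ± 0.066 to 4.50 ± 0.287 RPKM (SD, n = 3). *Tgfb1*, the ligand, was at 4.73, 2.75 and 5.36 RPKM in control and at 8.09, 5.29 and 9.94 with TGF-β, and these ranges overlap. It was not called (log2 0.73, SE 0.25, adjusted p = 0.0770), although it was called with the 4 identified libraries alone.

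Of 6 receptor genes tested 3 were higher and none was lower. *Tgfbr1*, the type I receptor gene that is deleted in the KO cells, rose 4.42-fold, from 3.02, 3.25 and 3.31 RPKM to 13.9, 14 and 14.5 (log2 1.85, SE 0.06, adjusted p = 1.46e-06). *Tgfbr2*, the type II receptor gene, rose less, from 10.1, 10.5 and 9.47 RPKM to 17.5, 18.7 and 15.5 (log2 0.72, SE 0.08). *Acvrl1*, a type I receptor gene better known from the vessel wall, was low in both groups, at 0.553 ± 0.214 and 1.90 ± 0.262 RPKM. *Tgfbr3*, the co-receptor betaglycan, was at 8.69, 9.57 and 9.59 RPKM in control and at 8.53, 8.63 and 7.09 with TGF-β, and was not called (adjusted p = 0.184).

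Of 10 Smad and cofactor genes tested, only *Smad3* was called. It went from 3.31, 3.75 and 3.06 RPKM to 5.98, 5.83 and 5.01, with no overlap (log2 0.59, SE 0.09, adjusted p = 0.00255). Its fold lies just over the threshold of 1.5, and the call was lost without WT control 1 or 3 or WT TGF-β 1 or 2, with log2 values between 0.54 and 0.59. *Smad2* and *Smad4* differed by 0.07 each on the log2 scale and were not called. Of the inhibitors that feed back on the pathway 5 of 11 tested were higher and none was lower. *Ldlrad4* and *Pmepa1*, whose products keep Smads from the receptor, rose from 0.988 ± 0.308 to 6.3 ± 0.208 RPKM and from 2.42 ± 0.230 to 6.87 ± 0.657. The co-repressor genes *Ski* and *Skil* rose from 3.53 ± 0.351 to 8.11 ± 0.150 and from 5.36 ± 0.840 to 10.5 ± 1.03 RPKM. *Smad7*, the inhibitory Smad, was at 0.606, 0.533 and 0.703 RPKM in control and at 1.71, 1.88 and 1.91 with TGF-β (log2 0.81, SE 0.07, adjusted p = 0.000153).

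Of 30 genes listed as common TGF-β targets 19 were tested, and 10 were higher and 1 was lower, with a median log2 difference of 0.80. The 10 include *Foxp3* and *Itgae*, also on the Treg list, and *Pmepa1*, *Ski*, *Skil* and *Smad7*, also on the list of feedback inhibitors. *Itgae*, the αE chain of the integrin CD103, rose 16.6-fold from 0.363, 0.206 and 0.196 RPKM to 4.10, 4.6 and 3.98. *Id1*, an inhibitor of E proteins, rose from 2.81 ± 0.504 to 12 ± 1.07 RPKM, whereas its relative *Id3* fell from 59.1 ± 2.79 to 37.6 ± 0.655 and *Id2* stood at 54.6 ± 2.39 and 54.1 ± 4.0. *Ahr*, a ligand-activated transcription factor gene, rose from 0.739 ± 0.204 to 3.35 ± 0.490 RPKM. *Myc*, which TGF-β is known to repress in epithelial cells, was at 296, 293 and 309 RPKM in control and at 270, 255 and 247 with TGF-β. Its groups did not overlap, but it was not called (log2 -0.22, adjusted p = 0.0168).

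**Figure D2:**
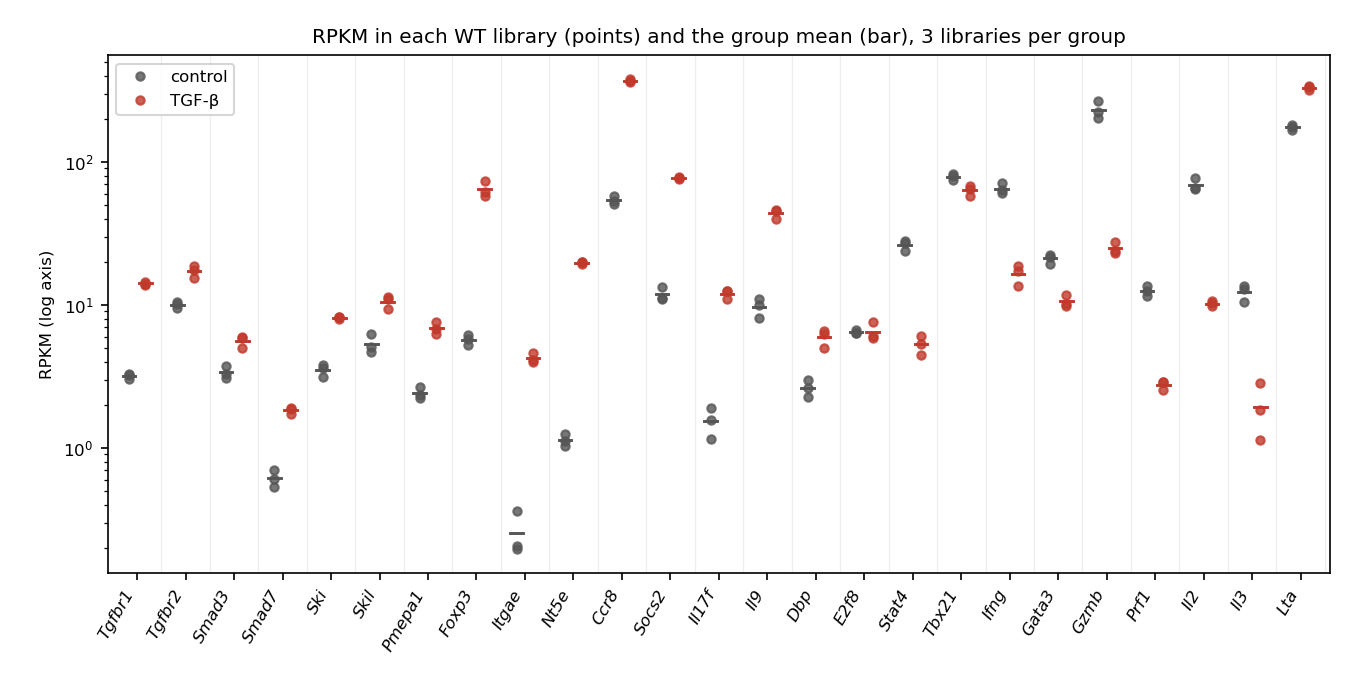
RPKM on a log axis in each of 3 WT control (grey) and 3 WT TGF-β libraries (red) for genes of the pathway and of T cell differentiation, with bars at the group means. The points of *Foxp3*, *Ccr8* and *Socs2* with TGF-β lie far above those of control, those of *Gzmb*, *Il2* and *Stat4* far below, and those of *E2f8* overlap.

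Of Treg genes, 10 of 20 tested were higher and 2 lower (3.42% and 2.28% of all genes), with a median log2 difference of 0.77. Besides *Foxp3*, *Nt5e*, *Ccr8* and *Socs2*, the list holds *Capg*, which encodes an actin-capping protein and was named after its values were seen because it had the highest level of all called genes. *Capg* rose from 206, 213 and 204 RPKM to 933, 964 and 925. *Ccr4*, a receptor that Treg and Th2 cells use to reach skin, rose from 11.2 ± 0.922 to 22.5 ± 1.21 RPKM. The decreases were *Ebi3*, a subunit of IL-27 and IL-35, from 6.38 ± 1.23 to 2.46 ± 0.424, and *Tnfrsf18*, which encodes the costimulatory receptor GITR, from 384, 359 and 381 RPKM to 214, 209 and 190. *Il2ra*, encoding the α chain of the IL-2 receptor, was at 55.6, 58.3 and 67.6 RPKM in control and at 89.9, 90.4 and 92.3 with TGF-β, and fell just short of the fold threshold (log2 0.58, adjusted p = 0.000898), which it passed without WT control 3 or WT TGF-β 1 or 2. *Ctla4*, the inhibitory receptor gene, differed by 0.31 and was not called, and *Il10* was below the filter, at 0.518 ± 0.237 and 0.462 ± 0.156 RPKM.

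Of Th17 genes, 7 of 13 tested were higher and 1 lower without added IL-6 (3.42% and 2.28% of all genes). The median log2 difference was 1.03. *Il17f* rose from 1.58, 1.15 and 1.90 RPKM to 12.4, 11.0 and 12.4. *Il17a*, the signature cytokine, was not called, with 1.10, 1.49 and 3.01 RPKM in control and 1.19, 1.80 and 3.93 with TGF-β (log2 0.18, SE 0.33, adjusted p = 0.764). The chemokine receptor gene *Ccr6* and its ligand gene *Ccl20* both rose, from 3.05 ± 0.165 to 15.1 ± 0.756 RPKM and from 3.48 ± 0.439 to 12.1 ± 1.87. *Il6ra*, the IL-6 receptor gene, rose from 6.87 ± 0.163 to 15 ± 0.467 RPKM. *Il22*, an epithelial repair cytokine of these cells, moved the other way, from 3.55, 5.56 and 4.87 RPKM to 1.35, 0.477 and 1.09, with the reservation that its near-identical copy may share its reads.

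Of Th1 genes, 5 of 12 tested were lower and 3 higher (2.28% and 3.42% of all genes), with a median log2 difference of -0.36. Beside *Stat4* and *Ifng*, the decreases included *Eomes*, a T-box factor gene of effector cells, from 4.49, 3.26 and 5.63 RPKM to 0.592, 0.478 and 0.763, and the IL-12 receptor gene *Il12rb2*, from 11.9 ± 1.12 to 4.95 ± 0.104. *Tbx21*, which encodes T-bet, the factor that defines Th1 cells, remained abundant, at 74.7, 79.4 and 82.5 RPKM in control and 67.5, 64.4 and 57.9 with TGF-β, and was not called (log2 -0.31, SE 0.07, adjusted p = 0.0139). The increases were in *Il18r1*, a subunit of the IL-18 receptor, *Txk*, a Tec family kinase gene, and *Cxcr3*, a chemokine receptor gene that rose from 9.07 ± 0.379 to 17.5 ± 0.765 RPKM.

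Of 8 Th2 genes tested 3 were higher and 1 was lower. *Gata3*, the factor that defines Th2 cells, was the decrease, from 21.7, 19.3 and 22.5 RPKM to 11.8, 9.86 and 10.2 (log2 -0.93, SE 0.08, adjusted p = 0.000178). The increases were *Ccr8*, *Ccr4* and *Maf*, a factor gene shared with Th17 cells, which went from 0.426 ± 0.044 to 2.47 ± 0.297 RPKM. *Il4* itself was near the limit of measurement and overlapped, with 0.818, 1.52 and 1.24 RPKM in control and 1.55, 0.506 and 0.541 with TGF-β.

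Of genes tied to Th9 cells, 5 of 17 tested were higher and 2 lower. *Il9* rose with TGF-β alone, from 9.93, 10.9 and 8.15 RPKM to 45.9, 45.2 and 40.1, which is 4.53-fold (log2 2.07, SE 0.10, adjusted p = 7.91e-06). Beside these values, WT IL-4 libraries had 13, 14.6 and 17.4 RPKM and WT TGF-β + IL-4 libraries 36.1, 33.6 and 34.1. Every WT TGF-β library was above every WT TGF-β + IL-4 library, whereas the paper states that neither cytokine by itself can make T cells transcribe *Il9*. Replicates 1 and 3 of both groups are among the libraries found by read counts. The cause of this difference was not tested. *Dbp*, a clock-controlled bZIP factor gene and the activator studied in this series, rose from 2.63, 2.97 and 2.29 RPKM to 4.97, 6.24 and 6.62 (log2 0.93, SE 0.11, adjusted p = 0.000850). WT TGF-β + IL-4 libraries had 8.01, 8.25 and 9.72 RPKM of *Dbp*. By quantitative PCR, the paper reports a significant rise of *Dbp* mRNA with both cytokines together and with neither alone. Why the RNA-seq values with TGF-β alone differ from that was not tested. *E2f8*, the atypical E2F repressor studied beside it, stood at 6.46 ± 0.171 RPKM in control and 6.51 ± 0.942 with TGF-β and was not called (log2 0.00, SE 0.09, with the sign differing between processing settings). *Stat5b* rose from 42.4 ± 1.34 to 70.4 ± 4.27 RPKM. Its close relative *Stat5a* was at 114, 125 and 112 RPKM and at 171, 173 and 147, without overlap but under the fold threshold (log2 0.48, adjusted p = 0.00313). *Foxo1*, a forkhead factor gene, rose from 4.28, 3.30 and 4.99 RPKM to 7.32, 7.56 and 9.50, a call that was lost without WT control 1 or WT TGF-β 1 or 3. *Irf4* was at 64.0 ± 3.59 and 88.9 ± 7.25 RPKM (log2 0.47) and *Spi1*, which encodes PU.1, at 2.40 ± 0.830 and 2.04 ± 0.113, and neither was called. Of clock and PAR bZIP genes as a group, 4 of 14 tested were higher, among them *Npas2* (log2 1.01) and *Nr1d1* (log2 0.86), and *Bhlhe40*, a repressor of the clock that also drives cytokine production in T cells, was lower (log2 -0.83).

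Of cytotoxic granule and death genes, 7 of 14 tested were lower and 2 higher (2.28% and 3.42% of all genes). The median log2 difference was -0.87. *Prf1*, the pore-forming protein perforin, fell from 11.5, 13.5 and 12.5 RPKM to 2.55, 2.90 and 2.87 beside *Gzmb*, *Gzma* and *Serpinb9*. The increases were the lysosomal proteases *Ctsw*, encoding cathepsin W, from 34.9, 31.8 and 29.0 RPKM to 164, 170 and 155 (log2 2.32, SE 0.07, adjusted p = 1.18e-06), and *Ctsc*, which matures granzymes, from 44.9 ± 3.01 to 69.7 ± 6.26. The call on *Ctsc* was lost without WT control 2 or WT TGF-β 1. CD8 T cells express the same granule genes, and the 2 CD8 markers summed to between 24.8 and 26.9 RPKM in control and between 16.6 and 17.3 with TGF-β. Of these markers *Cd8b1* was lower, at 20.2, 19.4 and 21.1 against 12.3, 11.5 and 11.0 RPKM, and *Cd8a* was not called, at 6.12, 5.45 and 5.78 against 5.04, 5.06 and 5.58. Their part in the fall of granule genes was not tested.

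Of cytokines and TNF ligands of activated T cells, 7 of 15 tested were lower and 1 was higher. Beside *Il2* and *Il3*, *Csf2*, which encodes GM-CSF, fell from 5.10, 6.52 and 5.96 RPKM to 1.49, 1.00 and 1.78. *Tnfsf8*, the ligand of CD30, fell from 17 ± 1.71 to 5.42 ± 0.144 RPKM, and *Tnfrsf8*, which encodes CD30 itself, from 2.84 ± 0.847 to 0.581 ± 0.086. The increase was *Lta*, encoding lymphotoxin α, from 180, 168 and 174 RPKM to 332, 317 and 338 (log2 0.92, SE 0.05, adjusted p = 9.36e-06). Of 12 chemokine genes tested, *Ccl3* and *Ccl4* fell, the latter from 592, 588 and 613 RPKM to 249, 224 and 242. *Ccl1*, the ligand of CCR8, rose with its receptor, from 77.4 ± 9.61 to 128 ± 15 RPKM, but the call was lost without WT control 1 or WT TGF-β 1 or 3. *Cxcl10* fell by 1.01 on the log2 scale at an adjusted p of 0.00991, and this call was lost without any 1 of 5 libraries, WT control 3 being the exception.

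Genes of homing and adhesion were called in both directions. Among homing receptors, 5 of 15 tested were higher and 2 lower. *Ccr7*, which holds T cells in lymph nodes, fell from 814, 766 and 788 RPKM to 457, 468 and 438 (log2 -0.80, SE 0.05, adjusted p = 2.10e-05), and *Gpr183*, an oxysterol receptor gene, from 13.4, 13.6 and 13.3 to 4.93, 4.22 and 4.16. *S1pr1*, which guides T cells out of lymph nodes, rose from 2.57 ± 0.594 to 6.48 ± 1.08 RPKM, a call lost without WT control 1. Among integrins and adhesion genes, 4 of 19 were higher and 3 lower (3.42% and 2.28% of all genes). With *Itgae* rose *Itgb7*, whose product pairs with αE, from 41.2, 42.0 and 43.7 RPKM to 66.3, 75.2 and 65.7. *Ninj1*, encoding the membrane protein ninjurin, rose from 47.3 ± 1.72 to 136 ± 4.14 RPKM. *Itgb3*, the integrin β3 chain, fell from 2.90 ± 0.112 to 0.696 ± 0.067.

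Factors of naïve and memory cells gave 2 higher and 4 lower of 20 tested. *Klf2*, the factor that maintains *S1pr1*, rose from 2.35, 1.45 and 2.74 RPKM to 7.0, 6.63 and 11.8, though not in the fit without WT control 1. *Satb1*, a chromatin organiser, fell from 12.9, 12.3 and 15.2 RPKM to 4.82, 5.38 and 5.74. *Tcf7*, which encodes TCF-1, was at 64.6, 56.7 and 64.0 RPKM and at 40.0, 44.1 and 40.9, just under the fold threshold, which it passed without replicate 2 of either group (log2 -0.56 with all, adjusted p = 0.000727). *Il7r* was low in both groups, with 2.04 ± 0.172 and 1.92 ± 0.890 RPKM.

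Among 18 cytokine receptor genes of the gamma chain and IL-6 families 5 were lower and *Il6ra* was higher. *Il10ra*, the IL-10 receptor α chain, fell from 4.41, 4.77 and 4.13 RPKM to 1.41, 1.14 and 1.05, *Il15ra* from 12 ± 0.890 to 4.82 ± 0.401, and *Il21r* from 106 ± 2.32 to 59.8 ± 5.35. Of costimulatory receptors 6 of 17 were lower and 2 higher, with a median log2 difference of -0.43. *Cd28*, the costimulatory receptor that the cultures engaged, fell from 57.7, 55.7 and 60.7 RPKM to 32.6, 34.2 and 34.5. *Tnfrsf25*, the receptor DR3, rose from 15.8, 14.6 and 16.6 RPKM to 38.4, 37.1 and 37.3. Of coinhibitory receptors, *Lag3* fell from 89.9, 98.4 and 98.9 RPKM to 44.5, 43.7 and 39.4, and of 12 tested the only other call was *Nt5e*. Immediate early genes report recent TCR signalling, and their list, which also holds genes of MAP kinase feedback, had 3 lower and 2 higher of 20. *Nr4a1*, *Nr4a2* and *Fos* fell by 0.70, 0.95 and 1.08 on the log2 scale. *Dusp4*, a phosphatase gene that dampens MAP kinases, rose from 25.6 ± 0.783 to 61.7 ± 6.86 RPKM, and *Jun* from 21.8 ± 0.365 to 33.5 ± 0.733, with the call on *Jun* lost without WT control 3 or WT TGF-β 2.

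Of interferon-stimulated genes, 10 of 30 tested were lower and none was higher (2.28% and 3.42% of all genes). The median log2 difference was -0.40. *Isg15*, a ubiquitin-like modifier, fell from 18.9, 16.6 and 17.6 RPKM to 5.54, 4.21 and 6.51 (log2 -1.56, SE 0.13, adjusted p = 0.000107). *Zbp1*, a sensor of nucleic acids in Z form, fell from 56.5, 58.3 and 54.7 RPKM to 23.8, 24.8 and 25.3, and *Ifih1*, which encodes the RNA sensor MDA5, from 5.37 ± 0.287 to 1.59 ± 0.202. *Gbp4*, a guanylate-binding protein gene, fell from 48.2, 46.1 and 53.4 RPKM to 15.5, 14.4 and 15.1, and 3 other *Gbp* genes were also lower, but the family has near-identical members that may share reads.

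Of the genes tested in the lists of glycolysis and hypoxia, of sterol and fatty acid synthesis and of amino acid stress, 4.17%, 7.69% and 13% were called, beside 5.71% of all genes. No gene was called in limma of 43 of S phase and none of 54 of G2 and M phase, with median log2 differences of -0.02 and -0.03. In limma 9 and 15 of them had an unadjusted p under 0.05, beside 3180 of all 9726 genes tested. Of 24 glycolysis and hypoxia genes tested the only call was *Egln3*, a prolyl hydroxylase gene of the hypoxia response, from 4.06, 4.26 and 3.56 RPKM to 12.3, 14.5 and 13.6. Of 26 sterol and fatty acid synthesis genes only the desaturase genes *Scd1* and *Scd2* were higher (log2 0.66 and 0.85), and the call on *Scd1* was lost without WT control 1 or 3 or WT TGF-β 1 or 2. Of 23 genes of amino acid stress, *Sesn2*, a stress-induced inhibitor of mTORC1, was higher (log2 1.13), and *Cth* and *Atf3* were lower (log2 -0.71 and -0.62), the call on *Atf3* being lost without WT control 2 or WT TGF-β 3.

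**Figure D3:**
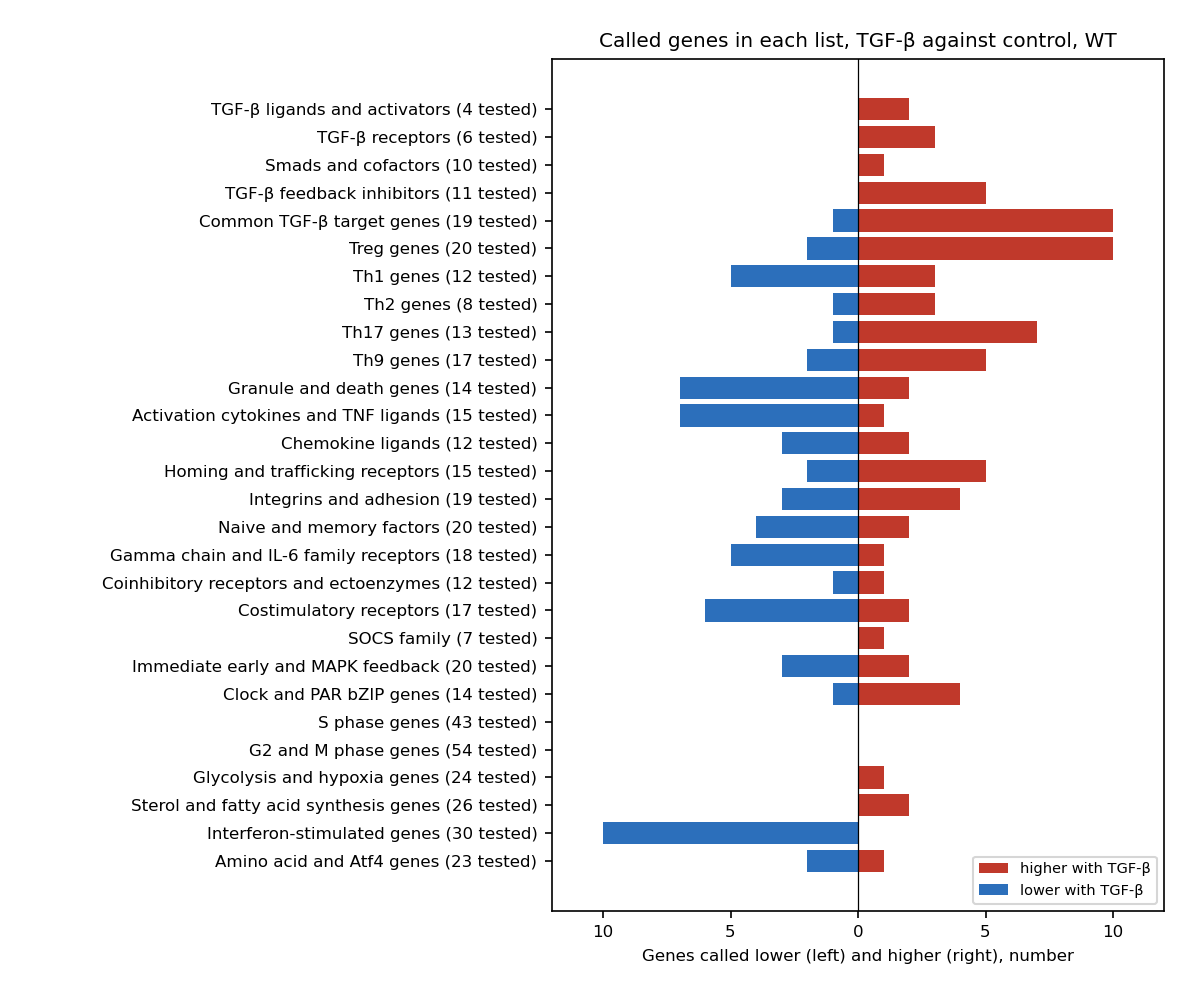
For each of 28 gene lists, bars to the right count the members called higher and bars to the left those called lower in WT TGF-β than in WT control, with the number tested in the label. Treg and common target genes reach 10 higher, interferon-stimulated genes 10 lower, and both cell cycle lists have no bar.

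The comparison of TGF-β + IL-4 with IL-4 in WT cells shares no library with that of TGF-β and control and gives the effect of the cytokine a second time, with IL-4 present. It called 912 of 9829 genes (9.28%), 596 higher (6.06%) and 316 lower (3.21%). Of the 333 genes that rose with TGF-β alone, 321 were tested there, all 321 had a positive difference and 268 were called higher, with a median log2 difference of 0.98. Of the 222 that fell, 218 were tested, 193 had a negative difference and 97 were called lower, with a median of -0.52. *Aqp3* differed by 4.68, *Foxp3* by 3.57 and *Nt5e* by 3.50 with IL-4, and *Gzmb* by -2.53. Decreases of smaller size with IL-4, in *Nrn1* (-0.96 against -2.29) and *Il2* (-1.52 against -2.64), had an interaction that passed the test described next (1.33 and 1.12).

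The difference between these effects was tested as an interaction over all 12 WT libraries, which include the 6 of the main comparison. It passed for 173 of 9794 genes (1.77%), with 139 more positive and 34 more negative in the presence of IL-4. *H2-DMb2*, a gene of MHC class II peptide loading, was at 7.31, 9.24 and 7.14 RPKM in control and 8.31, 6.69 and 8.20 with TGF-β, whereas it went from 12.6, 7.52 and 7.15 with IL-4 to 38.2, 22.1 and 28.1 with TGF-β + IL-4 (interaction 1.62, SE 0.29, adjusted p = 0.00489). *Ccr7* fell with TGF-β alone, but with IL-4 present its level was 441, 444 and 396 RPKM without and 543, 555 and 593 with TGF-β (interaction 1.2, SE 0.08). *Gbp4* and *Cd28* also had a positive interaction (1.18 and 0.73). *Ccr8* had the most negative interaction (-1.33, SE 0.10, adjusted p = 3.48e-05). Its level was 125, 131 and 153 RPKM with IL-4 and 379, 370 and 348 with both cytokines, so the level with both cytokines overlapped that with TGF-β alone, and the level without TGF-β was the part that differed. *Il9* had an interaction of -0.91 (SE 0.15, adjusted p = 0.00319), and *Emp1* of -1.23 (SE 0.15). Counts of interactions rested on single libraries, since without WT control 1 there were 90 positive and 18 negative, and without WT TGF-β + IL-4 3 there were 91 and 16. The negative ones also fell to 22 without WT control 2, 19 without WT TGF-β 3 and 18 without WT IL-4 3.

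In KO cells, which lose the type I receptor after tamoxifen, a single gene passed the test. *Tgfbr1* was at 2.32, 2.55 and 3.05 RPKM in KO control and 2.37, 2.42 and 3.24 in KO TGF-β. The RPKM counts the whole gene, so it does not check the deleted part. TGF-β changed 1 of 9563 genes in KO cells (0.0105%), and 246 had an unadjusted p under 0.05. The gene was *Foxp3*, at 1.46, 1.36 and 1.48 RPKM in KO control and 4.76, 3.95 and 3.92 in KO TGF-β (log2 1.09, SE 0.09, adjusted p = 0.00892), and without any 1 of the 6 KO libraries it was not called (adjusted p between 0.0167 and 0.0657). With the replicate number as a block, which pairs the KO libraries by their numbers, 2 genes were called, *Foxp3* and *Ccr8*. The deviations of same-numbered KO libraries had correlations of 0.321, 0.363 and 0.343. *Ccr8* was at 6.14, 7.84 and 6.94 RPKM in KO control and 13.4, 16.2 and 15.4 in KO TGF-β (log2 1.01, blocked adjusted p = 0.00191).

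The genes most changed in WT cells were also looked at library by library in KO cells, as a description. For 9 of the 10 largest increases every KO TGF-β library was above every KO control library, which was so for 399 of the 9726 genes tested in WT (4.1%). *Aqp3* was at 0.780, 1.49 and 1.49 RPKM in KO control and 4.58, 4.21 and 3.88 in KO TGF-β, which is 3.37-fold against 40.2-fold in WT. *Fbxo2* was at 0.121 ± 0.039 and 1.08 ± 0.293 RPKM and *Nt5e* at 0.512 ± 0.130 and 1.13 ± 0.065 (SD, n = 3), both under the filter for a test in KO. *Syp* was the exception and overlapped, at 0.567, 0.534 and 0.701 against 0.504, 0.691 and 0.909. Of the 10 largest decreases none had KO TGF-β below KO control throughout, which was so for 353 of the 9726 genes (3.63%), and 3 of them, *Serpinb9*, *Il3* and *Ccl3*, had every KO TGF-β library above every KO control library. *Gzmb* was at 101, 94.1 and 115 RPKM in KO control and 105, 114 and 108 in KO TGF-β. Over all called genes, the median log2 difference in KO was 0.04 for the 259 higher genes that were tested there and -0.01 for the 219 lower ones.

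Tested as an interaction, the effect of TGF-β differed between KO and WT for 456 of 9678 genes (4.71%), more negative in KO for 276 and more positive for 180. The most negative was *Aqp3* (-3.61, SE 0.17, adjusted p = 7.09e-08), and the most positive was *Gzmb* (3.23, SE 0.14, adjusted p = 3.00e-08). *Tgfbr1* and *Foxp3* had interactions of -1.84 and -2.19, and *Il2*, *Ifng* and *Stat4* of 2.75, 2.51 and 2.14. These fits use the WT libraries of the main comparison again.

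**Figure D4:**
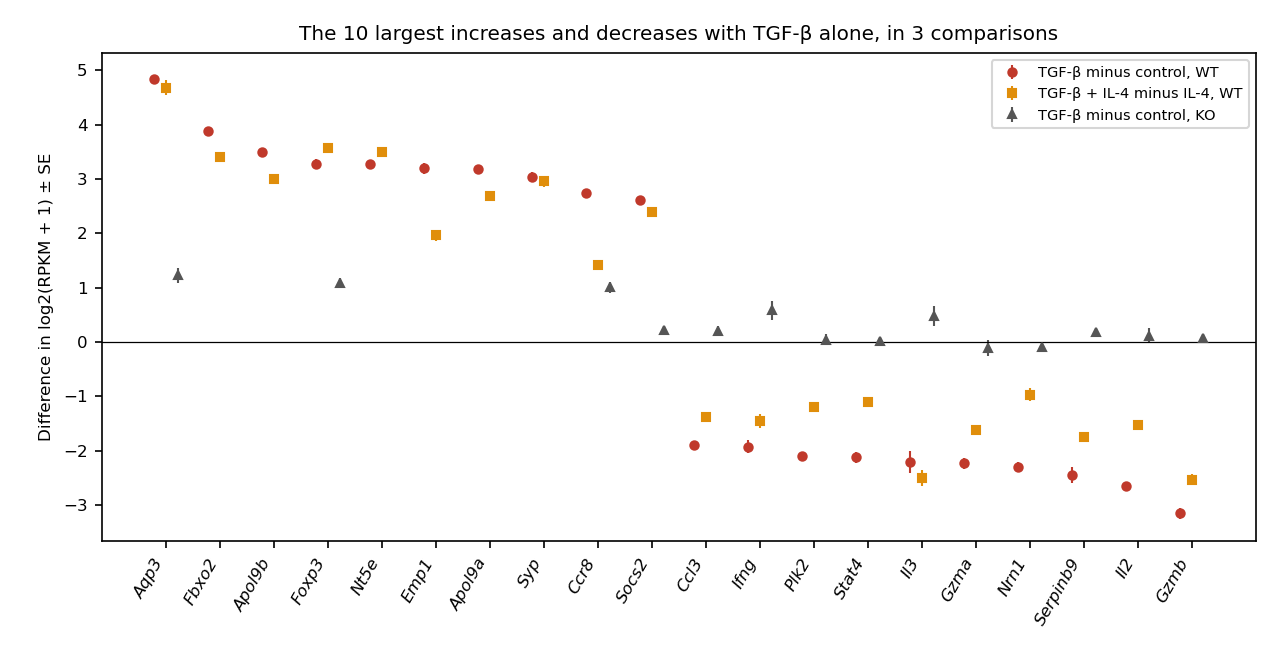
Differences in log2(RPKM + 1) with their standard errors for the 10 largest increases and 10 largest decreases, for TGF-β alone in WT (red circles), TGF-β + IL-4 against IL-4 in WT (orange squares) and TGF-β in KO (grey triangles, missing for 6 genes below the filter), 3 libraries per group. The WT comparisons lie on the same side of 0 for all 20 genes, and the KO points lie between -0.10 and 1.23.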

How the data were processed

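RNA-seq libraries were made from cultured mouse CD4+ T cells with Smart-seq2 amplification. The authors mapped the reads with Bowtie2 to the mm9 genome, filtered them by mapping quality, discarded redundant ones, and deposited RPKM of 24089 genes in 24 columns, scaled to gene length and library size. Versions of their tools are not given in the sources used here. Total read numbers are unknown, so no counting interval was computed, and the number of libraries limits the precision. Groups were taken from the labels and columns by library-number order.

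From the deposited RPKM, log2(RPKM + 1) was tested with limma 3.58.1 in R 4.3.3 (moderated with a trend), using genes whose mean RPKM reached 1 in the libraries fitted. Called genes had an adjusted p (Benjamini-Hochberg) below 0.01 and differed by more than 1.5-fold. Fold changes on this scale understate those of low genes. The 2 interactions used 12 libraries each. Tables and figures were made with Python 3.11.15, pandas 2.3.3, numpy 2.4.6 and matplotlib 3.10.9, and the fit was tested on simulated data. Genes named are the 10 largest changes in each direction, up to 4 called members of each of 36 lists per direction, defining members of lists, and the 5 largest interactions in each direction. Some list members are not reported here. The members and lists were chosen with earlier results of these data known.

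Alternatives were a pseudocount of 0.1, no filter or a minimum of 5, median ratios, quantile normalization, all 12 WT libraries, no trend, an adjusted p under 0.05, a replicate block, leaving out each library, the 4 libraries identified by read counts, and the column headings. Block and left-out libraries for the KO comparison and for TGF-β + IL-4 against IL-4 were added after the data were seen. Promoters are from RefSeq (GRCm38.p6) and gene positions from GENCODE vM1 (mm9). The 4 DNase-seq peak lists, which hold no culture with TGF-β alone, were not used.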

Additional observations from a re-analysis of the deposited data

Results flagged for a closer look

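The effect of TGF-β was measured with and without IL-4 in WT cells, and the difference between the effects was tested by an interaction term in limma with Benjamini-Hochberg adjustment. It passed for 139 genes with a more positive and 34 genes with a more negative effect in the presence of IL-4. The largest positive differences on the log2 scale were in *H2-DMb2* (1.62), *Adm* (1.53), *Ms4a6b* (1.43), *Gm6904* (1.41) and *Nrn1* (1.33). *Adm*, which encodes the peptide adrenomedullin, went from 4.70, 3.19 and 4.0 RPKM in control to 0.683, 0.858 and 0.438 with TGF-β alone, and was at 1.43, 0.818 and 0.987 with IL-4 and 1.01, 1.05 and 0.927 with both. *Ms4a6b*, a gene of the membrane-spanning MS4A family, went from 119, 116 and 136 RPKM to 51.6, 59.5 and 61.9 with TGF-β alone, and from 67.7, 79.5 and 55.7 with IL-4 to 80.9, 79.4 and 96.1 with both. The largest negative differences were in *Ccr8* (-1.33), *Emp1* (-1.23), *Hbegf* (-1.16), *Slc39a8* (-1.06) and *Ajuba* (-1.04). *Hbegf*, which encodes an EGF receptor ligand, went from 1.48 ± 0.211 to 5.58 ± 0.611 RPKM with TGF-β alone (SD, n = 3), and *Slc39a8*, which encodes a zinc transporter, from 4.6 ± 0.488 to 14 ± 0.652. *Ajuba*, a LIM domain scaffold gene, was at 7.08, 7.88 and 10.3 RPKM with IL-4 and 2.21, 2.05 and 1.99 with both cytokines.

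The same kind of test between KO and WT cells passed for 180 genes with a more positive and 276 genes with a more negative effect in KO. The largest positive differences were in *Gzmb* (3.23), *Il2* (2.75), *Il3* (2.69), *Serpinb9* (2.63) and *Ifng* (2.51), all of which fell with TGF-β in WT cells. The largest negative ones were in *Aqp3* (-3.61), *Fbxo2* (-3.0), *Syp* (-2.96), *Emp1* (-2.85) and *Apol9b* (-2.85), all of which rose in WT cells.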

How the results depend on the processing

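The counts of genes called with TGF-β alone stayed within 1.5 times of 333 and 222 under every alternative except the minimum mean RPKM of 5, which gave 197 higher and 145 lower of 6788 tested, and the column headings, which gave 0 and 0 of 9769 in limma, with 456 at an unadjusted p under 0.05. Leaving out a library gave 306 to 334 higher and 194 to 234 lower. Interactions with IL-4 without a filter numbered 90 and 16 (139 and 34 with it), the negative ones 79 at an adjusted p under 0.05, and without a library they ranged from 90 to 151 and from 16 to 40. Those between KO and WT ranged from 165 to 179 and from 247 to 271, KO calls from 0 to 0, and TGF-β + IL-4 against IL-4 from 556 to 639 and from 278 to 335. Same-numbered libraries deviated together with correlations of -0.05, 0.55 and 0.49 in the main comparison. Since 1 of the 3 is not over 0.1 and the labels do not tell, the main fit has no block, although the libraries numbered 2 and 3 correlated best with their own number. With the replicate block 355 genes were higher and 237 lower, negative interactions with IL-4 numbered 64 (138 positive), those between KO and WT 217 and 306, KO calls 2, and TGF-β + IL-4 against IL-4 gave 600 and 322. Among the named genes that were not called, the sign of the log2 difference turned in 7. With a library left out, it ranged from -0.0982 to 0.066 in *E2f8*, from -0.0841 to 0.0816 in *H2-DMb2*, from -0.0661 to 0.0387 in *Id2*, from -0.153 to 0.449 in *Il17a*, from -0.273 to 0.176 in *Il7r*, from -0.0476 to 0.174 in *Smad4* and from -0.347 to 0.007 in *Spi1*. It was -0.0215 in *E2f8* with median ratios and -0.0487 with quantiles, 0.0037 in *Id2* with quantiles, and with the 4 identified libraries 0.171 in *H2-DMb2*, 0.021 in *Id2*, -0.0342 in *Smad4* and 0.0239 in *Spi1*. The cause was not tested. Read totals are unknown, and genes below 1 RPKM were not tested.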
